A study of Mus musculus with 182 samples.

Results

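The genes described here are those whose RNA was nearly missing up to the 8-cell stage and present at the 64-cell stage in wild-type mouse embryos, 46 of the 24499 genes in the count table. They were chosen by measured values: a mean of 0.5 CPM (read counts scaled to a common total per cell) or lower over the wild-type cells of each of oocytes, 2C, 4C and 8C (2C to 64C for the 2-cell to 64-cell stages), and a mean of 10 CPM or more over the 20 wild-type 64C cells. The early limit was met by 8598 genes and the late limit by 7283, and 48 genes met both. The rule leaves out 7 genes by name (Cdx2, Sox2, Gata4, Sox17, Pth1r, Atp12a and Dppa1). Of these, Pth1r and Atp12a met both limits, so 46 remained.

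RNA was sequenced in 182 single mouse cells, with cDNA primed at the polyadenylated 3′ end, from oocytes to 64C. All embryos were hybrids of the strains C57BL/6J (B6) and Cast/EiJ (Cast) from natural matings, without culture: BC embryos had a B6 mother and a Cast father, CB embryos had Cast mothers and B6 fathers. The wild type (Xist wt/wt) comprised 7 oocytes (4 B6, 3 Cast) and, from both crosses and both sexes, 6 cells of stage 2C, 10 of 4C, 29 of 8C, 15 of 16C, 26 of 32C and 20 of 64C. Cells whose paternal Xist allele was labelled as deleted (Xist wt/ko, called deletion cells here) came from CB alone and numbered 7 of 8C and 12 of 16C, all female, then 20 of 32C (16 female, 4 male) and 30 of 64C (25 female, 5 male). Males inherit no X chromosome from the father, so the male cells carry that label as members of the deletion collection and cannot hold the deleted allele. At 64C the wild types were 6 BC females, 6 CB females, 6 BC males and 2 CB males. No label names an embryo, so for tests the cells of the same stage, cross, sex and genotype were summed into 1 sample, and p-values measure only the spread between such sums.

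Between the 8-cell stage and the blastocyst the mouse embryo forms an outer epithelium, the trophectoderm, which pumps fluid and later builds the placenta, and an inner cell mass, which gives the epiblast and the primitive endoderm. TEAD proteins, held in check by Hippo signalling in inner cells, and AP-2 and GATA factors act in the trophectoderm. SOX and POU factors, which read an octamer sequence, act in inner cells, and Krüppel-like factors act in both. The 46 genes hold 3 Wnt ligands (Wnt7b, Wnt3a, Wnt6), transcription factors (Hnf4a, Cdx1, Elf5, Nfatc4 and the TEAD cofactor Vgll3) and the surface enzymes Tmprss2, Mmel1 and Enpp1 (a pair of peptidases and a phosphodiesterase).

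RefSeq promoters, 250 bases before to 50 after a start site on GRCm38.p6, were found for 36 of the 46 genes (46 promoters). Beside them stand all 32851 promoters of the same table. Both strands were searched for 7 motifs. The TEAD motif CATTCC was in 21.7% of the genes' promoters and 14.7% of all promoters. The corresponding shares were 21.7% and 16.6% for the AP-2 motif GCCNNNGGC, which is its own reverse complement, 43.5% and 31.5% for the Krüppel-like factor motif GGGTGG, 19.6% and 12.6% for the SOX motif CATTGT, 8.70% and 7.44% for the GATA motif GATAAG, 2.17% and 1.74% for the octamer ATTTGCAT, and 8.70% and 13.6% for the TATA box TATAAA. A match describes the letters and shows no bound factor.

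Windows of 30 bases show the TEAD motif (or its reverse complement) in capitals in 5 genes whose RNA was high in 64C cells with high trophectoderm markers. Positions are chr16:97611278-97611307 (minus strand) for Tmprss2, chr4:118543788-118543817 (minus) for Tmem125, chr16:65815114-65815143 (plus) for Vgll3, chr9:50746616-50746645 (minus) for 2310030G06Rik and chr1:136234385-136234414 (minus) for 5730559C18Rik, which RefSeq calls Inava.
Tmprss2: gtcgctgctaggGGAATGcctagagtccag
Tmem125: ccacagtcctgaGGAATGctgggacagact
Vgll3: cccgcctccccaCATTCCggctaccctgcc
2310030G06Rik: tcacttgggaatCATTCCaccaggtggctt
5730559C18Rik: gcttgggtctccGGAATGaaaactgccccc

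A second set shows the motif GGGTGG in capitals in 4 genes whose RNA was high in 64C cells with inner markers: chr2:163506806-163506835 (plus) for Hnf4a, chr14:34355546-34355575 (minus) for Fam25c, chr14:55824697-55824726 (plus) for Nfatc4 and chr11:102107920-102107949 (minus) for Pyy. The third pair shows the AP-2 motif of the neighbours Oas1a (chr5:120907576-120907605, minus) and Oas1g (chr5:120887662-120887691, minus), close paralogs that carry the allelic result below. These windows lie upstream of the start sites and show nothing about the RNA.
Hnf4a: gataaccgggcgGGGTGGcagctggctgtg
Fam25c: agagggggtagtGGGTGGgggctcattgaa
Nfatc4: cctctttggaggGGGTGGgactggagagat
Pyy: agcgattggcagGGGTGGagggagggagga
Oas1a: aagctctgaaGCCATTGGCtgccggggcct
Oas1g: aagctctgaaGCCATTGGCtgtcggggcct

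The levels at wild-type 64C chose the genes and are given as a description. The Wnt ligand Wnt7b (chromosome 15, 85535437 to 85581821) had the highest mean, 96.9 ± 129 CPM (SD over 20 cells), from 0 in the lowest cell through a median of 51.3 to 504 in the highest. The transmembrane serine protease Tmprss2 (chromosome 16, 97564682 to 97659541) had 89.6 ± 128 CPM, with 0, 18.4 and 426 in the lowest, median and highest cell. These means lie within the spread between cells and do not rank the genes. The other 2 Wnt ligands had 14.9 ± 20.5 CPM for Wnt3a and 11.9 ± 38.1 for Wnt6.

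Among the transcription factors, the nuclear receptor Hnf4a of liver and visceral endoderm (chromosome 2, 163506811 to 163572907) had 37.9 ± 65.4 CPM at wild-type 64C, but a median of 0.346 and 9 of 20 cells at 1 CPM or more. Most of its RNA thus came from a minority of cells that reached up to 222 CPM. The homeobox gene Cdx1 had 13 ± 29.97 CPM, Vgll3 14.1 ± 33.1, the calcium-regulated factor Nfatc4 10.7 ± 20.2, and the trophoblast ETS factor Elf5 10.1 ± 39.95. For Elf5, 1 cell with 179 CPM held 88.7% of the summed level, and 4 of 20 cells reached 1 CPM.

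The oligoadenylate synthetases Oas1a and Oas1g, enzymes of the interferon response, were the most evenly distributed. Oas1a (chromosome 5, 120896256 to 120907544) had 29.1 ± 28.4 CPM, with 0.527, 23.9 and 102 in the lowest, median and highest cell, and Oas1g (120876142 to 120887613) had 23.1 ± 22.8, with 0.703, 17.5 and 85.5. They reached 1 CPM in 17 and 18 of 20 cells and had reads in all 20. The genes are 8643 bases apart and close paralogs, so the split of reads between them is uncertain.

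The remaining genes include the intracellular protease inhibitor Serpinb9b (41 ± 51.5 CPM), the adaptor Dok2 of tyrosine kinases (39.8 ± 67.8), the calcium-dependent protease subunit Capn2 (31.2 ± 46.8), the Ly6 surface protein Ly6f (31 ± 49.9), the gut peptide gene Pyy (22.6 ± 66.8), the lens crystallin Crygd (22.6 ± 42.2), the lipoprotein Apoa1 (18.4 ± 35.1) and the adenosine receptor Adora1 (18.3 ± 38.2). The authors' signal is also divided by gene length. Since the RNA was primed at its 3′ end, neither CPM nor this signal need rank genes by level. High wild-type 64C signals were 82.1 ± 133 for Fam25c, 52.4 ± 71.4 for Wnt7b and 42.1 ± 122 for Pyy (SD, 20 cells). Just inside the late limit lay Elf5, Hist3h2a (10.2 CPM) and Nfatc4, and just outside it Rhpn1 (9.57), Lgals4 (9.53) and Acsl5 (9.32). Just inside the early limit lay Oas1a (highest early stage mean 0.471 CPM), Oas1g (0.453) and LOC105246506 (0.451), and just outside it F2rl1 (0.502), Hint2 (0.512) and Aqp8 (0.514).

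**Figure D1:**
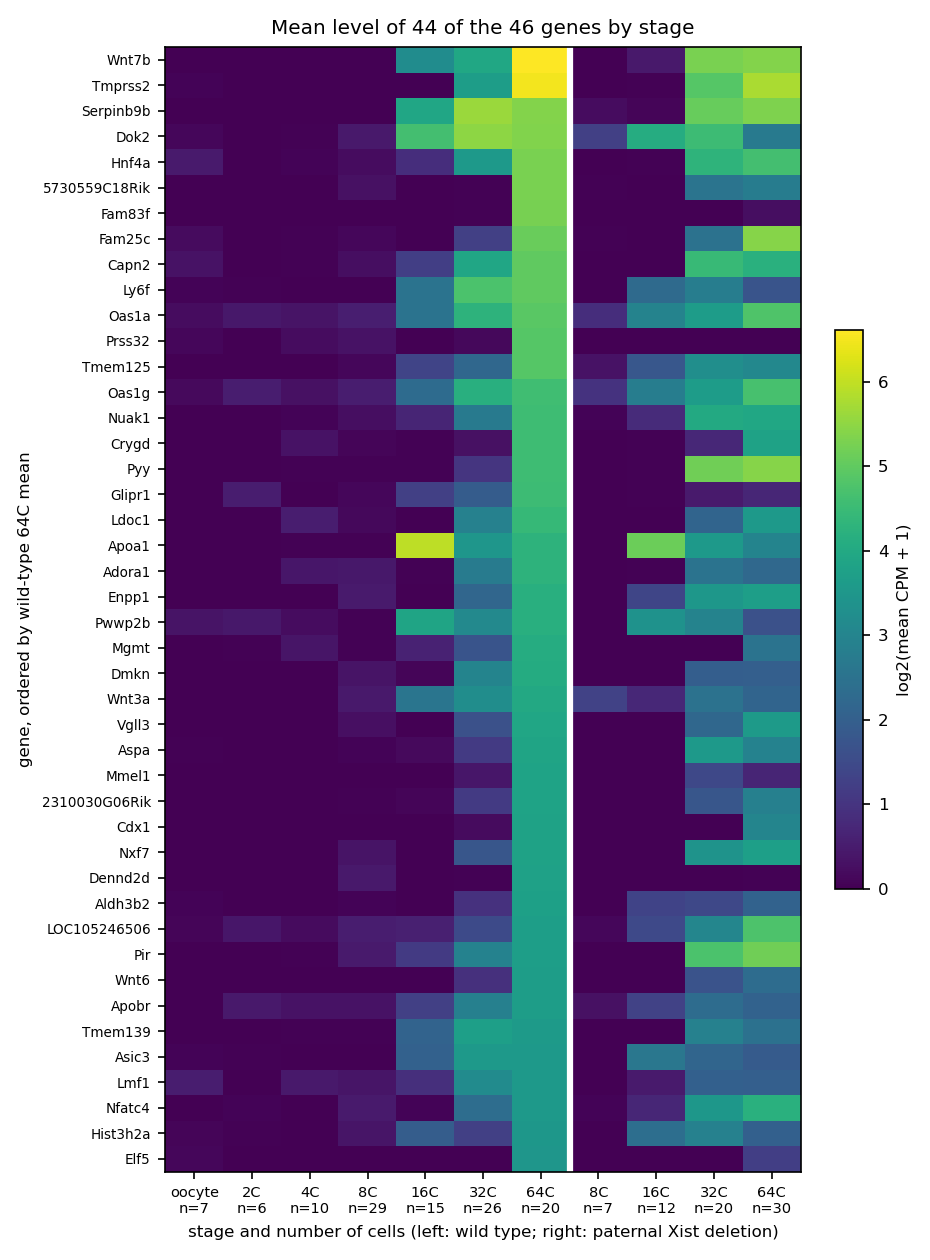
Mean level per stage of 44 of the 46 genes as log2(mean CPM + 1), wild type on the left and paternal Xist deletion on the right, with the number of cells under each stage. In both collections most genes are dark through 8C and 16C and light up at 32C and 64C, while Apoa1 is brightest at 16C.

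The stages 16C and 32C of the wild type, and all deletion cells, were not used to choose the genes and show when the RNA came up. In wild-type cells 21 of the 46 genes had a mean over 0.5 CPM at 16C and 38 at 32C. A mean of 10 CPM or more was reached by 4 at 16C and 13 at 32C. From 16C to 32C the mean was higher for 42 genes, against 54.8% of the 7283 genes at or over 10 CPM at wild-type 64C. The median gene stood at 0.709% of its 64C level at 16C and at 16.0% at 32C. The 64C levels in these shares are those that chose the genes.

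In the deletion cells the number of genes with RNA also rose from stage to stage. Of the 46 genes, 4 had a mean over 0.5 CPM at 8C (Dok2, Oas1a, Oas1g and Wnt3a), 17 did at 16C, 39 at 32C and 43 in 64C cells, and 34 had no read in the 7 cells at 8C. From 16C to 32C the mean was higher for 40 genes (58.6% of the 7283 genes), and from 8C to 64C for 45 (62%). Here too the 7283 genes have no early limit, and no excess is read from the shares. From 32C to 64C it was higher for 29 (48%), and the median gene stood at 78.5% of its deletion 64C level at 32C. At 32C, 36 genes were over 0.5 CPM in both collections, and at 16C 12 were.

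The earliest genes were on at 16C. The lipoprotein gene Apoa1 was the only one of the 46 with a wild-type 16C mean above its 64C mean: 60.5 ± 88.4 CPM over 15 cells, with 0, 26.6 and 333 in the lowest, median and highest cell and 11 cells at 1 CPM or more. It had 33.7 ± 96.5 CPM in the 12 deletion cells at 16C, with a median of 0.117 and a highest cell of 338. Its wild-type mean then was 10.1 at 32C, after 0.0201 at 8C. By group sum, the wild-type 16C RNA lay in females, at 56.5 (BC, 8 cells) and 139 CPM (CB, 3 cells). The male sums were 0.972 (BC, 3 cells) and 0 (CB, 1 cell), so the male side rests on few cells. In BC males the sum was 30.9 at 64C, above that at 16C.

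Dok2 had reads in every wild-type 16C cell, with 1.14, 15.3 and 78.2 CPM in the lowest, median and highest of 15, and a mean of 24.1 ± 21.9 that compared with 0.367 at 8C. Serpinb9b had a 16C mean of 14 ± 21 CPM and Pwwp2b 13.5 ± 13.8. In deletion cells at 16C, Dok2 stood at 16.0 ± 18.4, Pwwp2b at 9.35 ± 17.7 and Serpinb9b at 0.0587 ± 0.119. The deletion cells at 16C are all CB females. For Serpinb9b the wild-type 16C sums were 24.7 CPM in BC females (8 cells), 0.0318 in CB females (3 cells) and 0 in males of either cross (3 BC cells and 1 CB cell). Its deletion sum was 0.0566. Serpinb9b then stood at 47.9 ± 43.6 in wild-type and 32.6 ± 42.9 in deletion cells at 32C. The wild-type genes nearest to or above their 64C level at 32C were Serpinb9b (117% of it), Dok2 (110%), Tmem139 (108%), the acid-sensing channel gene Asic3 (97.3%) and Ly6f (83.2%).

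Tmprss2 had no read in the 15 wild-type 16C cells. With a floor of 3 counts over the stage (0.0227 CPM, counting error only), its summed level at 32C was at least 532-fold higher. The same bound was 288-fold for Ldoc1, an X-linked retrotransposon-derived gene, 152-fold for the phosphodiesterase Enpp1, 114-fold for the RNA export factor Nxf7 and 101-fold for Vgll3. These bounds are for sums over all wild-type cells of a stage, and 16C and 32C differ in their mix of cross and sex. At 32C Tmprss2 had 29.1 and 7.94 CPM in CB females and males, against 0.125 and 0.603 in BC. Nxf7 had 7.49 in CB females and 0 to 0.0501 in the other sums. Enpp1 had 0 in CB males and 3.83 to 5.01 in the other sums. In all, 13 genes had no wild-type read at 16C.

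A few genes stayed silent through 32C. Elf5 had no read in 26 wild-type 32C cells (floor 0.0132 CPM), and Fam83f, 5730559C18Rik and Dennd2d had means of 0.0215, 0.0284 and 0.0246 CPM there, and Prss32 0.104. These 5 genes had the lowest shares of their 64C level at 32C. In the deletion collection 5730559C18Rik reached 4.81 ± 16.9 CPM at 32C, with 4 of 20 cells at 1 CPM or more, while Fam83f and Dennd2d had no read. The serine protease gene Prss32 had no read at any deletion stage, including the 30 cells at 64C (floor 0.0109 CPM), against 28.3 ± 99.9 CPM at wild-type 64C, where 1 cell held 443 CPM. Deletion cells are all CB, and the wild-type CB sums at 64C were 0.203 (female) and 0.114 CPM (male), against 51.5 and 16.6 in BC.

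Tested over group sums with edgeR's quasi-likelihood test, the wild-type change from 16C to 32C, with sex and cross as covariates, gave 12 calls among 13322 genes (0.0901%), at an adjusted p under 0.05, and none of the 38 of the 46 genes that passed the filter on low counts. At an unadjusted p under 0.05, 22 were higher at 32C (7.03% of all genes tested) and 0 lower (4.79%), and 37 had a positive log2 difference (56.7%). The median log2 difference was 4.92, against 0.19 over all genes. DESeq2 called 18 of the 46 higher (5.20% of genes tested) and limma on the mean log2 level of cells called 0. The filter keeps genes through the stage where they are high, so these counts describe the genes that passed and are no support for the set.

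Examples show the size of the spread. The sums of the adenosine receptor gene Adora1 were 0.0380, 0, 0 and 0 CPM at 16C (BC female, CB female, BC male, CB male) and 14.2, 5.05, 1.56 and 3.23 at 32C. The 2 stages did not overlap, with a log2 difference of 9.04 (SE 2.08; edgeR adjusted p = 0.143, 2.90e-06 to 0.448 over 13 alternatives), a fitted value that depends on the prior count. Ly6f had 7.66, 0.0318, 3.17 and 0.302 CPM at 16C and 24.1, 5.54, 82.6 and 2.18 at 32C, which overlap, with a log2 difference of 4.03 (SE 1.01; edgeR adjusted p = 0.178, 0.000209 to 0.567 over 13 alternatives). Tmprss2 had 0 in all 4 sums at 16C and 0.125, 29.1, 0.603 and 7.94 CPM at 32C (edgeR adjusted p = 0.187, 3.66e-05 to 0.451 over 12 alternatives).

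Lists of related genes give the setting for that step. Of 18 trophectoderm markers tested from 16C to 32C, edgeR called 1 higher, the keratin Krt8, and 7 were higher at an unadjusted p under 0.05. Of 19 epithelial keratin, junction and barrier genes it called 2 higher (Krt8 and Anxa2), and of 19 signalling ligands and receptors 1 (the secreted Spp1). None of 15 transcription factors of the late embryo was called, with 1 higher and 2 lower at an unadjusted p under 0.05. The lists share members with the 46 genes, among them Wnt6 and Wnt7b with the ligands, Hnf4a with the late factors and Elf5 with the trophoblast genes.

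In the deletion collection a trend over 8C to 64C was fitted per doubling of cell number. It gave 1 call among 13996 genes (0.00714%) with edgeR and none among the 42 of the 46 genes that were tested. At an unadjusted p under 0.05, 20 had a positive slope (9.02% of genes tested) and 0 a negative one (6.74%), 40 in all had a positive slope (53.0%), and the median slope was 3.48 against 0.06. DESeq2 called 29 (8.42%) and limma 0. With 64C set against 8C and 16C in place of the slope, edgeR called 3 genes higher: Tmprss2, Wnt7b and the X-linked iron-binding pirin Pir (2.99% of 15621 genes were called higher).

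Fam25c had sums of 0.0231, 0.00943, 5.60, 0.995, 20.7 and 158 CPM in deletion groups at 8C female, 16C female, 32C female, 32C male, 64C female and 64C male (slope 4.59, SE 0.93; edgeR adjusted p = 0.115, 4.84e-07 to 0.490 over 12 alternatives). Crygd had 0, 0.0189, 0.795, 0.0452, 10.6 and 24.8 CPM (slope 5.21, SE 1.10; edgeR adjusted p = 0.123, 2.24e-06 to 0.490). In these genes both 64C sums lay above every earlier sum.

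Within a stage the genes were read by a part of the cells. At wild-type 64C a gene reached 1 CPM in 2 (Fam83f and Dennd2d) to 18 (Oas1g) of 20 cells, with a median of 9. The highest cell held a median of 37.1% of a gene's summed level and over 50% for 10 genes. The highest values fell in 16 different cells, 8 of them in BC cell 40 and 6 in BC cell 23. Without its highest cell, a gene's mean was under 10 CPM for 23 of the 46.

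Per cell, the number of the 46 genes at 1 CPM or more was 0 to 8 in wild-type 8C cells (median 1), 2 to 16 in 16C (8), 5 to 21 in 32C (15) and 13 to 28 in 64C cells (22). In deletion cells it was 0 to 3 in 8C (median 0), 0 to 10 in 16C (4), 4 to 22 in 32C (12) and 6 to 27 in 64C cells (15). The wild-type 8C and 64C cells do not overlap in this number, which restates how the genes were chosen.

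Each 64C cell was then placed on a marker score, the mean log2(CPM + 1) of trophectoderm markers minus that of epiblast and primitive endoderm markers, with the 46 genes left out. No cell of either collection lay between -0.477 and 2.86. Above that gap lay 11 wild-type and 8 deletion cells, and below it 9 and 22. These are ranges of a score and not cell types. Total counts moved with the score (Spearman's rho -0.53 over 20 wild-type and -0.50 over 30 deletion cells), and their part in the results below was not tested.

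The genes fell on both sides. With a limit of 0.4 on Spearman's rho between a gene's level and the score in both collections, 15 genes were positive (32.6%, against 3.97% of the 7196 other genes at or over 10 CPM at wild-type 64C that are neither member nor marker), and 8 were negative (4.84% of the others). The positive genes included Tmprss2, Wnt7b, 5730559C18Rik, Tmem125, Vgll3, Enpp1, Tmem139, Cdx1, Ldoc1, 2310030G06Rik, Wnt3a, Capn2, Dmkn and Pwwp2b. The negative ones included LOC105246506, Hnf4a, Nfatc4, Pyy, Fam25c, Crygd and Adora1. The correlation is a description here, over cells that may share embryos and that differ in total counts. Its wild-type part uses the 64C cells that chose the genes, often through a few high cells. The shares of the other genes are thus no like background, and no excess is read from them.

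**Figure D2:**
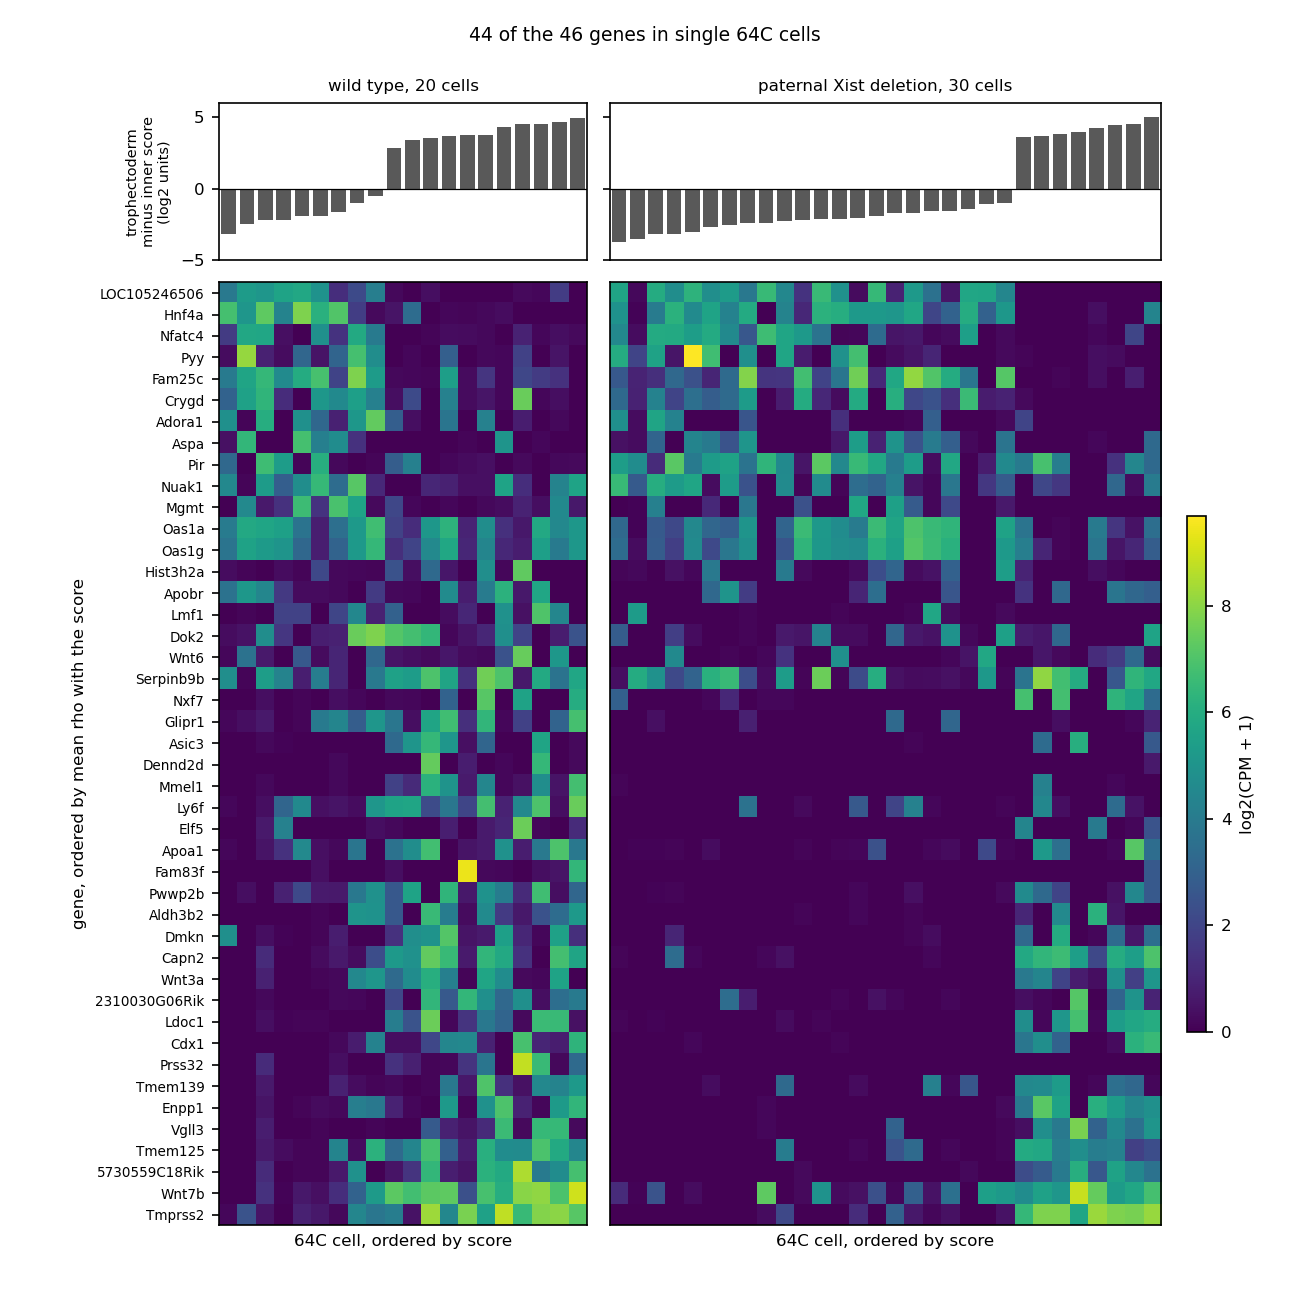
Level of 44 of the 46 genes as log2(CPM + 1) in each 64C cell, cells ordered by the marker score (bars, log2 units), 20 wild-type cells on the left and 30 deletion cells on the right. Genes at the top, such as LOC105246506 and Hnf4a, are bright in cells below the gap of the score, and genes at the bottom, such as Wnt7b and Tmprss2, in cells above it, in both collections.

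On the trophectoderm side, Tmprss2 had the highest rho averaged over both collections (0.82 in wild-type and 0.79 in deletion cells). Above the gap its mean was 159 ± 139 CPM in wild-type cells (0.402, 141 and 426 in the lowest, median and highest of 11) and 201 ± 89.0 in deletion cells (51.1, 224 and 300 of 8). Below the gap it was 4.48 ± 7.38 (highest cell 20.6) and 0.604 ± 1.61 (highest cell 7.0). In the deletion collection the ranges did not overlap, and in the wild type 2 cells above the gap, at 0.402 and 16.2 CPM, lay within the range below it.

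Wnt7b reached 1 CPM in all 11 wild-type and all 8 deletion cells above the gap, with means of 172 ± 133 and 117 ± 149 CPM. Below the gap 4 of 9 and 9 of 22 cells reached 1 CPM, with means of 5.47 ± 12.5 and 13.3 ± 34.2. The highest cells below the gap, at 38.1 and 156 CPM, overlapped the range above it.

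5730559C18Rik was at 1 CPM or more in 8 of 8 deletion cells above the gap (3.78, 13 and 66.2 CPM in the lowest, median and highest) and in 0 of 22 below it, where the highest cell had 0.187. The wild-type means were 66.1 ± 104 above and 3.45 ± 9.59 below. Ldoc1 reached 1 CPM in 8 of 11 wild-type and 6 of 8 deletion cells above the gap and in no cell below it (highest 0.289 and 0.227 CPM). Enpp1 in deletion cells had 45.5 ± 46 CPM above the gap and 0.0146 ± 0.0485 below it, and Wnt3a 12.7 ± 13.1 above it and no read in the 22 cells below.

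On the inner side, the noncoding RNA LOC105246506 (Rbfaos in RefSeq) had 26.5 ± 18.8 and 35.9 ± 30.9 CPM below the gap (wild type and deletion) and 0.277 ± 0.677 and 0 above it.

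Hnf4a had 83.0 ± 77.3 CPM below the gap in wild-type cells (0.195, 69.6 and 222 in the lowest, median and highest of 9) and 31.7 ± 24.4 in deletion cells (0, 31.4 and 73.8 of 22). Above it the means were 0.974 ± 2.88 and 2.50 ± 6.95, with 1 cell at 1 CPM or more in each collection. Its rho with primitive endoderm minus epiblast markers was -0.44 in wild-type and -0.38 in deletion cells, and no gene of the 46 lay at or under -0.4 on that score in both. Wnt3a was the only one at or over 0.4 on it in both (0.60 and 0.53). These values run over cells above and below the gap together. Wnt3a is on the trophectoderm side and had no read in the 22 deletion cells below the gap. Its rho in deletion cells thus shows no difference among those 22 cells.

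Nfatc4 had 23.5 ± 25.1 and 23.7 ± 28.4 CPM below the gap and 0.20 ± 0.246 and 0.403 ± 1.09 above it. Fam25c had 68 ± 67.3 and 57.1 ± 84.7 below and 4.70 ± 12.5 and 0.143 ± 0.272 above. Pyy was uneven among the cells below the gap, at 49.1 ± 95.7 and 56.9 ± 174 CPM with medians of 7.74 and 0.554, and 1 deletion cell held 819. Its means above the gap were 0.911 ± 2.02 and 0.0746 ± 0.114.

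**Figure D3:**
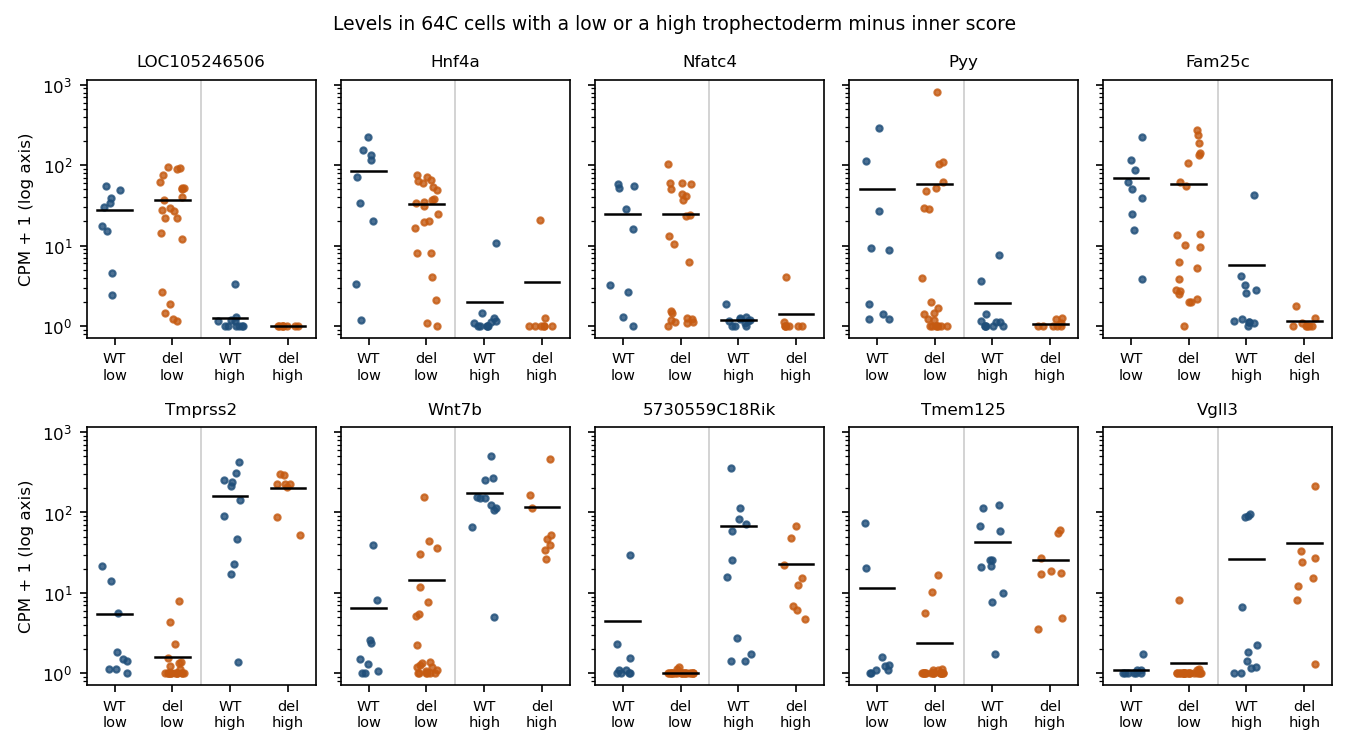
Level (CPM + 1, log axis) in single 64C cells for the 5 genes with the lowest and the 5 with the highest mean rho with the marker score among the 44 genes drawn; points are cells of the wild type (WT) and the paternal Xist deletion (del) below (low) and above (high) the gap of the score, and bars are means. LOC105246506 has no read in the 8 deletion cells above the gap, and Tmprss2 lies at 20.6 CPM or less in every cell below it.

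Other genes were spread over both ranges. Oas1a had 23 ± 25.3 (above) and 36.6 ± 31.6 (below) CPM in wild-type cells and 4.93 ± 6.30 and 34.3 ± 39 in deletion cells, and Serpinb9b 63.9 ± 60.1 and 13.1 ± 14.2 in wild-type and 73.5 ± 87.6 and 27 ± 44.8 in deletion cells. Over all 46 genes, the mean was higher above the gap in both collections for 26 (26.9% of the 7283 genes at or over 10 CPM at wild-type 64C) and higher below it in both for 14 (38.9%). Since wild-type 64C cells chose the genes, no excess is read from these shares either. Cells above the gap had a median of 25 (wild type) and 21.5 (deletion) of the 46 genes at 1 CPM or more, and cells below it 16 and 14.

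The TEAD motif CATTCC was in the promoters of 5 of the 11 genes of the trophectoderm side with a promoter in the table (the genes printed with that motif), of 1 of the 6 of the inner side (Adora1) and of 4 of the other 19. The motif GGGTGG was in 5 of 11, 5 of 6 and 8 of 19. In the same order, the AP-2 motif was in 3, 1 and 6 genes, SOX in 1, 1 and 6 and GATA in 0, 0 and 3. The octamer was in 0, 0 and 1 and the TATA box in 1, 1 and 2. By promoter, CATTCC was in 38.5%, 11.1% and 16.7% (14.7% of all promoters). GGGTGG was in 38.5%, 77.8% and 33.3% (31.5%), where overlapping promoters of Pyy share a match. A difference between the sides was not tested. The genes' promoters had a median observed to expected CpG ratio of 0.370, against 0.384 for all promoters.

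At 64C the deletion cells had lower means than the wild type for 39 genes (50.2% of the 7283 genes were lower), and the median gene stood at 39% of the wild-type level, against 99.9% over those genes. The wild-type 64C cells chose the genes, so nothing is read from this. The collections also differed in their cells: the summed trophectoderm markers had a median of 7139 CPM per wild-type cell (327 to 27594) and 691 per deletion cell (270 to 22190), and the wild type includes BC cells. Against the 8 CB wild-type cells alone the median was 81.6%. Above the gap it was 36.5% and below it 33%. The part of these differences in the result was not tested.

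The reverse choice shows how far the list depends on the wild-type cells. With the deletion 64C cells in place of the wild-type ones the same limits chose 29 genes, of which 20 are among the 46 (43.5% of the 46 and 69% of the 29). Among the genes higher in deletion than wild-type 64C cells were Pir at 35.3 against 12.1 CPM, LOC105246506 at 26.3 against 12.1, Pyy at 41.7 against 22.6, Fam25c at 41.9 against 33.2, Nfatc4 at 17.5 against 10.7 and Oas1g at 25 against 23.1. Of these 6, 4 are on the inner side of the score.

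The genotypes were tested in CB groups at 16C and 32C, which the rule did not use. edgeR called 0 of 13142 genes (504 at an unadjusted p under 0.05; DESeq2 271, limma 0) and 0 of the 41 of the 46 that were tested. Of these, at an unadjusted p under 0.05, 0 were higher (2.87% of genes tested) and 1 was lower (0.966%), and 24 had a positive difference (54.7%). DESeq2 called 1 of the 46, which was lower (0.411% of genes tested were called lower), and limma 0. That gene was the DNA repair enzyme gene Mgmt, with 2.68 (16C female), 3.64 (32C female) and 3.04 (32C male) CPM in CB wild-type sums and 0 (16C female), 0.00668 (32C female) and 0.0452 (32C male) in deletion sums. Its log2 difference was -8.19 (SE 2.88; edgeR adjusted p = 1, 0.00478 to 1 over 10 alternatives). Few cells set these sums. Over both crosses, Mgmt reached 1 CPM in 1 of 15 wild-type 16C cells and 4 of 26 at 32C. In deletion cells it did in 0 of 12 and 0 of 20. At 64C the 2 deletion sums of Mgmt had 4.97 and 5.30 CPM. Leaving out the wild-type or the deletion 32C male sum, so that the female pairs set the difference, gave 1 and 10 called genes and 0 of the 42 of the 46 tested. The deletion cells 7 and 9 at 8C carry Xist reads. Their label deletes the paternal allele alone, and the allele behind these reads was not looked at. The test between genotypes uses no 8C cell.

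Wild-type BC and CB groups were compared at 32C and 64C. edgeR called 0 of 13132 genes (1324 at an unadjusted p under 0.05; DESeq2 602, limma 0) and 0 of the 45 of the 46 that were tested. Of these, at an unadjusted p under 0.05, 7 were higher in BC (5.89% of genes tested) and 3 lower (4.20%), and 32 had a positive difference (53.1%). DESeq2 called 7 higher in BC (3.08% of genes tested) and 4 lower (1.5%), and limma 0. The wild-type 64C cells in this test chose the genes, and 1 high 64C group can both admit a gene and set its difference, so nothing is read from these shares. At 32C alone, which the rule did not use, edgeR called 122 of 12183 genes (1%) and 0 of the 36 of the 46 that were tested. There 1 was higher in BC and 4 lower at an unadjusted p under 0.05, against 14% of genes in either direction. In the test over both stages, the genes DESeq2 called higher in BC were 5730559C18Rik, Aldh3b2, Hist3h2a, Ly6f, Mmel1, Prss32 and Wnt7b. Those it called lower were Aspa, Hnf4a, Mgmt and Nuak1. The 64C sums differ in their markers, since 14 of 18 trophectoderm markers were also higher in BC (median log2 difference 1.15, against 0.08 over all genes), and the part of this in the difference was not tested.

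Ly6f was higher in BC in each of the 4 pairs of stage and sex: 24.1 against 5.54 CPM (32C females), 82.6 against 2.18 (32C males), 32.9 against 4.78 (64C females) and 50.1 against 0.171 (64C males). Its log2 difference was 4.41 (SE 1.06; edgeR adjusted p = 0.414, 1.31e-05 to 0.705 over 13 alternatives). Prss32 had 51.5 and 16.6 CPM in BC females and males at 64C and 0.203 and 0.114 in CB (log2 difference 6.83, SE 1.49; edgeR adjusted p = 0.414, 1.73e-06 to 0.705 over 12 alternatives). Hist3h2a, a histone H2A gene, had 5.09, 0.905, 18.4 and 6.18 CPM in BC (32C female, 32C male, 64C female, 64C male) and 0.306, 0.0190, 0.709 and 0.114 in CB (log2 difference 5.09, SE 1.24; edgeR adjusted p = 0.414, 1.27e-05 to 0.705 over 13 alternatives).

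Females and males of the wild type were compared over the same stages. edgeR called 2 of 13132 genes (0.0152%) and 0 of the 45 of the 46 that were tested. At an unadjusted p under 0.05, 3 were higher in females (2.69% of genes tested) and 0 lower (1.42%), and 37 had a positive difference (53.8%). DESeq2 called 1, Enpp1, which was higher in females (0.35% of genes tested), and limma 0. These shares too rest on the 64C cells that chose the genes, and nothing is read from them. At 32C alone edgeR called 3 of 12183 genes (0.0246%) and 0 of the 36 tested, of which 3 were higher in females and 0 lower at an unadjusted p under 0.05, against 6.07% of genes in either direction. Adora1 had 14.2 and 5.05 CPM (BC and CB) in 32C females and 1.56 and 3.23 in males, and 40.9 and 21.1 in 64C females and 3.41 and 0.40 in males (log2 difference 2.98, SE 1.04; edgeR adjusted p = 1, 0.0559 to 1 over 13 alternatives). At both stages its female sums lay above the male ones. At 64C the sexes also differed in their cells: above the score gap lay 3 of 6 BC females, 2 of 6 CB females, 6 of 6 BC males and 0 of 2 CB males, and Adora1 is an inner-side gene. The part of this in the difference was not tested.

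The hybrids allow each allele to be read. The authors' allelic fraction, the share of reads from the father's allele, is given for 43 of the 46 genes, and 13 autosomal ones were measured at 64C in 3 or more wild-type cells of each cross. The number of reads behind a share is unknown. Their median share was 0.540, against 0.503 over 5698 genes. In limma on group means of shares at 32C and 64C, 333 of 5016 genes (6.64%) differed between the crosses, and 3 of the 5 of the 46 genes that were tested did: Oas1a, Oas1g and Apobr.

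Oas1a had a paternal share of 0.875 in BC and 0.0680 in CB group means, which is mostly Cast RNA in both crosses (difference 0.807, SE 0.0968; limma adjusted p = 0.00577). Oas1g had 0.866 and 0.0730 (difference 0.793, SE 0.0779; limma adjusted p = 0.00266). In single 64C wild-type cells the lowest BC share of Oas1a was 0.773 and the highest CB share 0.469, so the crosses did not overlap. In 18 deletion cells at 64C its mean share was 0.316 ± 0.314, and at least 1 cell read the paternal B6 allele alone. The assignment of reads to alleles in these paralogs is not described in the labels.

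The lipoprotein receptor gene Apobr went the other way, with paternal shares of 0.219 in BC and 0.760 in CB, which is mostly B6 RNA (difference -0.541, SE 0.0956; limma adjusted p = 0.0255). That call was lost when any 32C group mean, or the 64C mean of BC or of CB males, was left out (limma adjusted p 0.0485 to 0.0911 over 8 alternatives), while the calls of Oas1a and Oas1g were kept in all 8. LOC105246506 had 0.251 and 0.775 (limma adjusted p = 0.0589) and Glipr1 0.448 and 0.475 (limma adjusted p = 0.898).

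Genes with too few cells for the test are given as values. Pyy was read from the Cast allele at 64C, with mean paternal shares of 0.996 in BC (3 cells), 0.000984 in CB (3 cells) and 0.0194 in deletion cells (9 cells). The barrier protein gene Dmkn had 0.785, 0.00764 and 0.172. The kinase gene Nuak1 was mostly paternal in both crosses, at 0.745 in BC (3 cells, 0.234 to 1), 0.981 in CB (7 cells, 0.925 to 1) and 0.992 in deletion cells (12 cells).

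**Figure D4:**
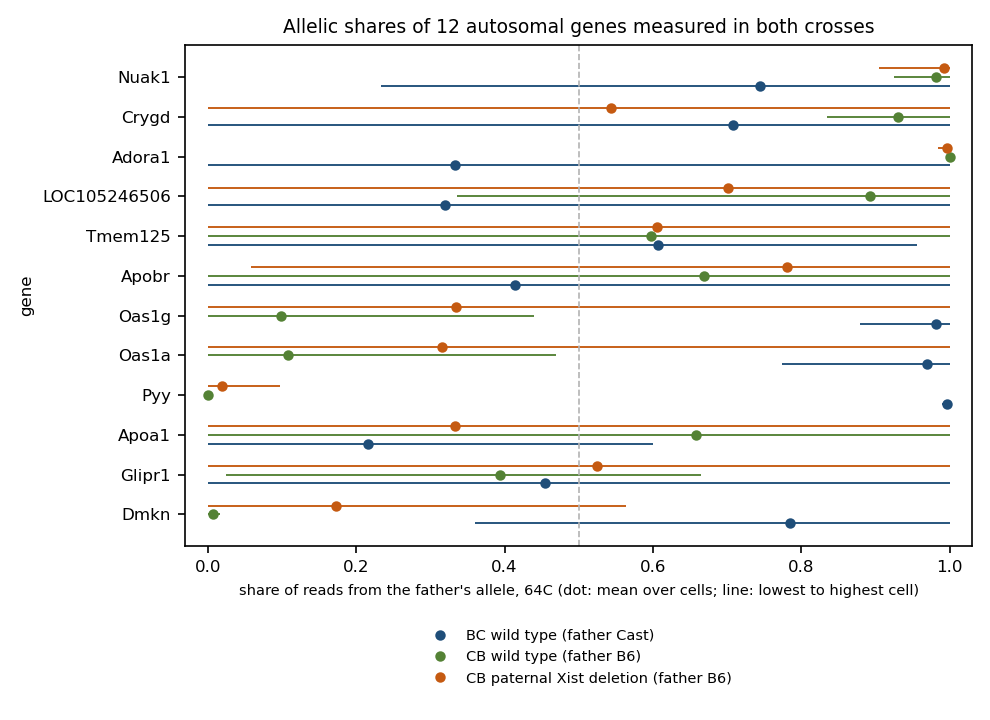
Share of reads from the father's allele at 64C for 12 of the 13 autosomal genes measured in both crosses; dots are means over cells and lines run from the lowest to the highest cell, for BC and CB wild types and CB deletion cells. Oas1a, Oas1g and Pyy lie near 1 in BC and near 0 in CB wild types, Nuak1 has means of 0.745 or more in all 3 groups, and most other genes span nearly the whole axis in at least 1 group.

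Of the 46 genes 3 are X-linked: Ldoc1, Nxf7 and Pir. Pir had 40.2 ± 44.1 CPM in the 25 deletion females at 64C (0, 23.1 and 149 in the lowest, median and highest), 10.4 ± 17 in 5 deletion males, 29.5 ± 43.7 in 6 CB wild-type females and 6.69 ± 16.1 in 6 BC females. The groups overlap. Its paternal share in deletion females was 0.725 (19 cells) at 64C and 0.714 (12 cells) at 32C, and in CB wild-type females 0.480 (2 cells) and 0.667 (3 cells).

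Nxf7 was read from the paternal allele in deletion females, with shares of 0.998 at 64C and 1 at 32C (4 cells each), and in the 1 CB wild-type female cell with a share at 32C. The 1 BC female and 1 BC male cell with a share at 64C gave 0. The father is B6 in CB and Cast in BC, so all Nxf7 cells with a share read mostly or only the B6 allele. Strain and parent of origin thus cannot be told apart for Nxf7. Ldoc1 had a paternal share of 0 in the 4 wild-type 64C cells with a share (3 BC males and 1 CB female). In 6 deletion females at 64C its share was 0.449, where single cells ran from 0 to 1. Males inherit no X chromosome from the father, so a share of 0 in male cells holds no information on the paternal allele. For Ldoc1 the wild-type side at 64C thus rests on 1 female cell, and no difference from the deletion females is read from it.

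Facts of the whole series that touch these values are few. Cells had 2.54M to 40.05M counts in all (median 8.78M), with 5.46M to 12.8M in the wild-type and 6.17M to 12.7M in the deletion cells at 64C. Markers of cumulus and granulosa cells summed to at most 1.79 CPM in any 64C cell, and those of blood and other somatic cells to at most 0.390 in wild-type and 32.8 in deletion 64C cells. Oocyte transcripts summed to a median of 4.91 (wild type) and 8.38 (deletion) CPM at 64C. In the libraries compared, no pair of cells of a group agreed within counting noise.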

How the data were processed

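The submitters' processing notes name the build mm10 and the tools TopHat2 2.1.0, HTSeq 0.6.1 and SAMtools. Settings and strand use are not given there. Per the deposited files, the authors provided read counts for 24499 genes per cell, a signal normalized for depth and gene length, and an allelic fraction read as the paternal share of reads. Wild-type and deletion cells stand in separate sheets, so genotype cannot be told apart from collection. A 2C cell with 2 cross labels followed its title.

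CPM divides a count by the cell's total. The members and all lists were chosen with earlier results of these data known. Counts were summed into 31 groups and tested in R 4.3.3 with edgeR 4.0.16 (quasi-likelihood; TMM normalization by trimmed means; low counts removed by filterByExpr; calls at a Benjamini-Hochberg adjusted p under 0.05). Wild-type 16C and 32C were compared with sex and cross as covariates, the deletion trend with sex, genotypes with stage and sex, crosses with stage and sex, sexes with stage and cross. DESeq2 1.42.0, limma 3.58.1 on cell means of log2(CPM + 1), other size factors, no filter and leaving out each group sum were tried. Shares were tested with limma. Scripts were tested on simulated data. Total counts set the precision, and floors of 3 counts cover counting error only, since PCR copies carry no molecular identifier here and are not independent. Named genes were, by rule, the 15 highest at wild-type 64C, members on lists, the 3 with the smallest p per test without calls, the extremes of timing, score and allelic share, X-linked members and those next to a limit. Others serve as examples and were chosen after their values were seen. Sequences are from RefSeq (GRCm38.p6). Some members are not reported here by name and are left out of the figures, but stay in all counts.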

Additional observations from a re-analysis of the deposited data

Results flagged for a closer look

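In 92 sets of 4 wild-type group sums (a gene at 32C or 64C), the highest or lowest sum stood apart from the other 3 in 14, by a gap above Dixon's critical value for 4 samples. Chance flags about 1 in 20 sets of normal values. Group sums of single cells are skewed, and over the 7283 genes at or over 10 CPM at wild-type 64C the share was 5.25% at 32C and 5.82% at 64C, against 10 and 4 of the 46 genes. The 64C values chose the genes. A sum in this test holds 2 to 9 cells, and single high cells are frequent in these genes.

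The 32C CB females were the highest sum for 6 genes. The gap was 0.955 of the range for 2310030G06Rik (3.51 CPM against 0.0251 to 0.0950), 0.985 for the amidase gene Aspa (2.29 against 0 to 0.0177) and 0.899 for Capn2 (22.3 against 9.22 to 10.1). It was 0.933 for Cdx1 (0.446 against 0 to 0.0251), 0.977 for Nxf7 (7.49 against 0 to 0.0501) and 0.890 for Tmem139 (30.3 against 2.93 to 3.93).

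The 32C CB males were the lowest sum for Enpp1 (gap 0.878, 0 CPM against 3.83 to 5.01) and Wnt7b (gap 0.969, 2.13 against 17.2 to 18.3). At 32C the BC males were highest for Prss32 (gap 0.925, 0.390 against 0 to 0.0251) and the BC females for Pyy (gap 0.849, 5.31 against 0.0355 to 0.361). At 64C the BC males were highest for Dennd2d (gap 0.991, 48.8 against 0.0200 to 0.0572) and lowest for Fam25c (gap 0.839, 0.691 against 30.8 to 54.9) and LOC105246506 (gap 0.885, 0.105 against 16.2 to 23.5). All 6 cells of the BC male sum lay above the score gap (3 of 6, 2 of 6 and 0 of 2 in the other sums), where the wild-type means of LOC105246506 and Fam25c were 0.277 and 4.70 CPM (26.5 and 68 below it), and the part of this was not tested. The 64C BC females were highest for Elf5 (gap 0.933, 25.3 against 0 to 0.243).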

How the results depend on the processing

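No paired analysis was possible because group sums of cells carry no replicate number, and sums matched by stage, cross or sex enter the tests through those covariates. Other size factors and no filter kept the edgeR tests at 0 of the 46 genes called. DESeq2 called 1183 genes and 18 of the 46 from 16C to 32C, 1974 and 29 for the deletion trend, 271 and 1 for genotype, 602 and 11 for cross, and 70 and 1 for sex. The cause was not tested. limma called 91 genes from 16C to 32C and 147 for the trend. Without covariates, 19 genes were called from 16C to 32C. For the trend, other size factors gave 10 genes, no filter 29, and stages as a factor 621 genes and 3 of the 46. At 32C alone the crosses differed in 122 genes, with 0 of the 46 called.

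With 1 group sum left out in turn, edgeR called 0 to 7 genes and 0 to 1 of the 46 from 16C to 32C: Serpinb9b without the 16C BC female sum (log2 difference 11.29, edgeR adjusted p = 0.0450). The ranges were 0 to 2 genes and 0 to 0 of the 46 for the trend, 1 to 54 and 0 to 0 for genotype, 0 to 0 and 0 to 0 for cross, and 1 to 3 and 0 to 0 for sex. The allelic test, for which leaving out was chosen after seeing the data, ranged from 145 to 224 genes and from 2 to 3 of the 46. The difference of Glipr1, not called, ranged from -0.0989 to 0.0404, and became 0.0219 without the 32C BC males and 0.0404 without the 32C CB males.

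The choice of genes depends on its limits. It gave 20 genes at a 64C minimum of 20 CPM, 24 at an early maximum of 0.25 CPM and 87 at 1 CPM, 23 without each gene's highest 64C cell, and 23 (15 of the 46) on the authors' signal. Scaling CPM by TMM library sizes gave 63 genes, 44 of the 46, and moved the wild-type 64C mean of Fam83f from 37.5 to 208 CPM. The median share of the 64C level at 16C was 1.85% in the wild type and 2.13% in deletion cells on the authors' signal, and 0.301% in deletion cells on group means. At a rho limit of 0.5 the inner side held 2 genes, and with shares required in 5 cells of each cross 4 genes were measured. Against CB wild-type cells alone, chosen after seeing the data, the median deletion level at 64C was 81.6%. Many sums rest on few cells, and a sum of 3 counts is the floor of detection.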
